A study of Mus musculus with 12 samples.

Results

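Kit, Car4, Plvap, Tbx2, Tbx3, Foxf1, Hpgd and Emp2 are 8 genes used to recognise capillary endothelium of the lung. They were taken by symbol from the deposited table, in which 12 transcripts carry these names, out of 52655 transcripts of 23422 genes. Values of a gene's transcripts were summed and are given as FPKM, which scales fragments by transcript length and by the size of the library. The 12 libraries came from primary lung endothelial cells in culture, 3 from each of 4 groups. Double knockout cells lacked MLK2 and MLK3 (MLK2-/-MLK3-/-) and were kept at 1% oxygen for 90 min (hypoxia) or at 21% oxygen (normoxia). Wild type C57BL/6J cells were kept in the same 2 conditions. MLK2 and MLK3 are kinases of the mixed lineage family, which act upstream of JNK, and the series was made to find what lies downstream of this family. All groups shared a growth medium with 20% fetal bovine serum, endothelial mitogen and heparin. The labels used here give neither the exons that the alleles lack, nor the age of the mice, nor whether replicate libraries stand for different cultures or animals. A p-value here reflects the scatter of these libraries, which may be technical.

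Lung capillaries hold a pair of endothelial cell types. Aerocytes are large, thin cells that line the gas exchange surface and are recognised by Car4, Ednrb, Apln, Emp2 and Tbx2. General capillary cells can divide and repair the bed, and are recognised by Kit, Plvap, Gpihbp1 and Aplnr. KIT is the receptor tyrosine kinase for stem cell factor (the product of Kitl), PLVAP builds the diaphragms that span endothelial caveolae and fenestrae, and HPGD oxidises and so inactivates prostaglandins.

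Depth, estimated from the FPKM values themselves, was 21300000 to 26000000 fragments per library. Map3k10, which encodes MLK2, was at 1.02 to 1.34 FPKM in hypoxic and 0.131 to 0.169 FPKM in normoxic double knockout cells. It was at 16.6 to 19.2 FPKM in wild type cells. Map3k11, which encodes MLK3, was at 10.9 to 12.2 FPKM in double knockout cells and at 31.9 to 36.4 FPKM in wild type cells. Both followed the genotype labels, and within double knockout cells Map3k10 also differed with oxygen. The cause of that difference was not tested.

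Kit was listed as 2 transcripts, and their sequences are shown because the deposited Kit value is the sum of them. Both have 21 exons (gene at chr5:75574916-75656722), and they differ at the start of exon 1 and at the end of exon 9. Exon 9 carries 12 more bases in Kit-201 (GRCm38 chr5:75639147-75639158, plus strand, coding sequence), while exon 1 starts further upstream in Kit-204, so that Kit-201 has 5214 bases in all and Kit-204 has 5241. The 12 bases set apart the forms known as GNNK+ (Kit-201) and GNNK- (Kit-204), which differ in the extracellular stem of the receptor next to the membrane. The junction of exons 9 and 10 is given below in the plus orientation, with 30 bases on each side and the extra bases in capitals.
Kit-201 (ENSMUST00000005815): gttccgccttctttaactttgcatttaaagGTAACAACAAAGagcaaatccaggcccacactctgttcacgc
Kit-204 (ENSMUST00000144270): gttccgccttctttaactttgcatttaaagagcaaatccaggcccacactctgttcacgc

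The 8 genes did not share a level. Plvap had the highest, 597 to 733 FPKM over the 12 libraries, a mean above that of 99.3% of all genes. Kit followed at 2.77 to 10.4 FPKM, and then Hpgd at 0.169 to 1.40 FPKM and Foxf1 at 0.317 to 0.645 FPKM. Tbx2 (0.0245 to 0.133 FPKM), Emp2 (0.0414 to 0.157 FPKM) and Tbx3 (0 to 0.0451 FPKM) stood near 0. Car4 was listed at 0 in 11 of 12 libraries. Only Kit and Plvap, 2 of the 8, reached a mean of 1 FPKM over the libraries and so entered the test across 11378 genes, while the other 6 fell below it.

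**Figure D1:**
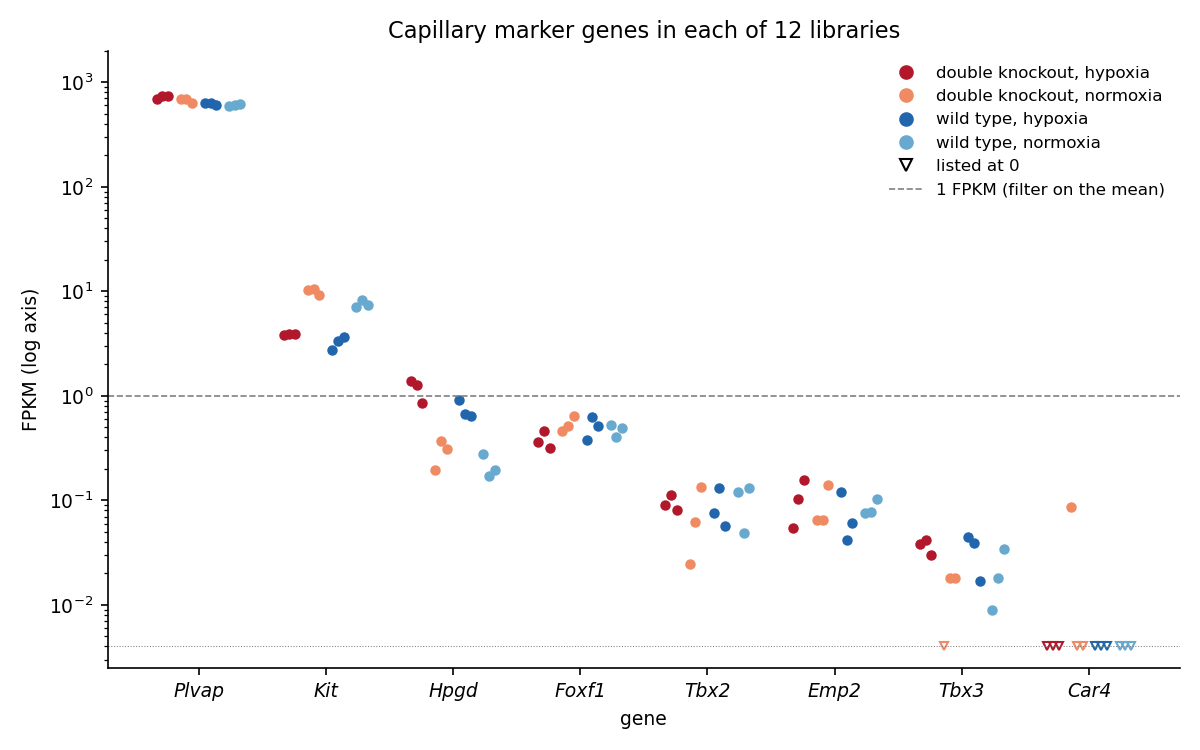
FPKM (log axis) of the 8 capillary genes in each of the 12 libraries, coloured by group, with open triangles for libraries in which a gene was listed at 0 and a dashed line at 1 FPKM. Plvap and Kit lie above the line in all 12 libraries, Hpgd crosses it in 2 hypoxic double knockout libraries, and the other 5 genes lie below it throughout.

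The name lung capillary was therefore only partly borne out by these markers. Of 14 aerocyte genes, 7 reached a mean of 1 FPKM, among them Apln (175 to 222 FPKM), which encodes apelin, Kdr (62.1 to 82.7 FPKM), a VEGF receptor, and Ednrb (8.51 to 32.1 FPKM), an endothelin receptor. The defining aerocyte marker Car4 was at or near 0, and so were Emp2, Tbx2, Fibin (0.0204 to 0.184 FPKM) and Rprml (0 to 0.110 FPKM). Of 13 general capillary genes, 10 reached 1 FPKM, among them Cd93 (177 to 252 FPKM), Tek (31.3 to 36.2 FPKM), the angiopoietin receptor, and Gpihbp1 (5.64 to 19.6 FPKM), which holds lipoprotein lipase on capillaries. The apelin receptor gene Aplnr stayed at 0.0128 to 0.806 FPKM.

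Markers of other endothelium were present as well. All 17 pan-endothelial genes reached 1 FPKM, with a median of their means of 121 FPKM, against 2.70 FPKM for the aerocyte list and 11.8 FPKM for the general capillary list. The lymphatic list had 9 of 10 gene identifiers at 1 FPKM or more, including Lyve1 (235 to 408 FPKM), Mmrn1 (227 to 287 FPKM) and Prox1 (18.5 to 39.4 FPKM), the transcription factor that specifies lymphatic endothelium. Of the artery genes 10 of 12 and of the vein genes 8 of 11 reached 1 FPKM. In a bulk library, fewer cells of a type and less RNA per cell cannot be told apart.

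Markers of cells outside the endothelium were mostly low. None of 9 mast cell genes, a cell type that depends on KIT, reached a mean of 1 FPKM, and Fcer1a and Tpsb2 were listed at 0 in all 12 libraries. Of 10 lung epithelial genes 2 reached 1 FPKM (Krt18 and Ager), while Scgb1a1 was listed at 0 and Sftpc did not pass 0.0770 FPKM. Of 13 fibroblast and mural genes 3 reached it (Tagln, Acta2 and Dcn). Of 11 macrophage and leukocyte genes 5 reached it (Lyz2, Cd14, Cd68, Mrc1 and Marco).

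**Figure D2:**
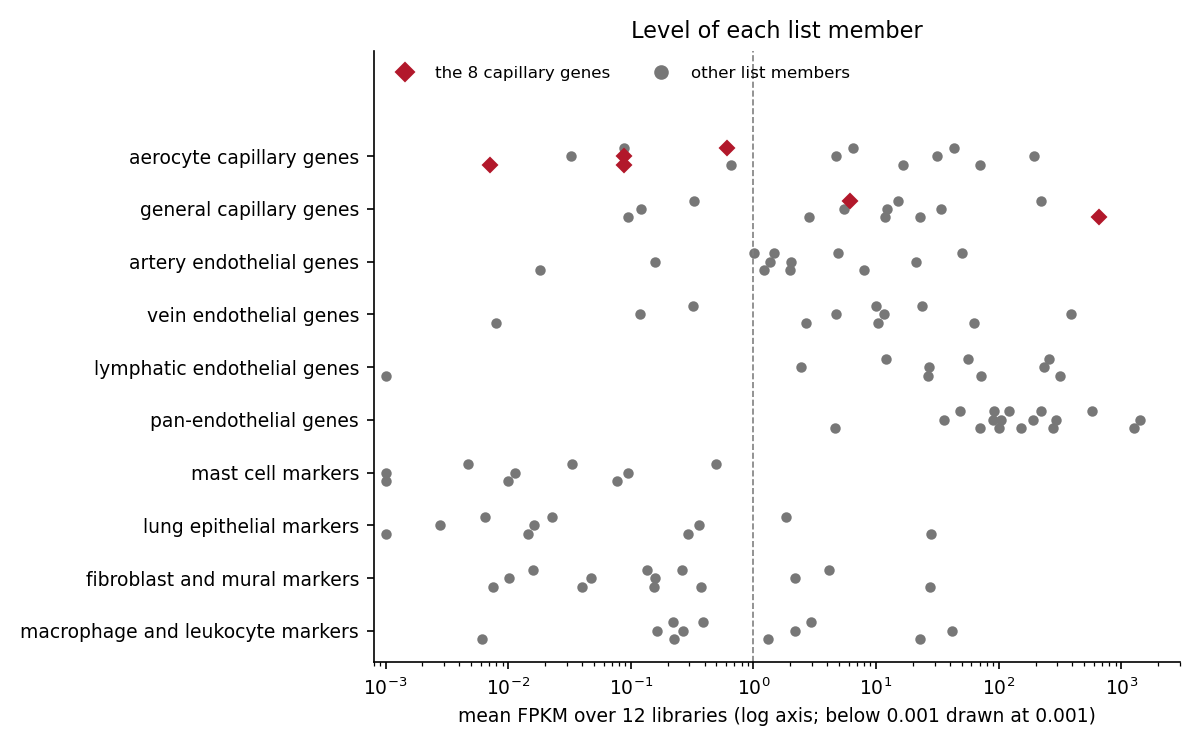
Mean FPKM over the 12 libraries (log axis) of each member of 10 marker lists, with red diamonds for those of the 8 capillary genes that are on a list, grey points for the rest and a dashed line at 1 FPKM. All 17 pan-endothelial genes lie right of the line, and the 9 mast cell genes all lie left of it.

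The pan-endothelial, lymphatic, artery and vein lists were counted against the share called among all genes. Of all 11378 genes, limma called 39.3% for hypoxia in double knockout cells, 20.8% for hypoxia in wild type cells, and between genotypes 16.1% in hypoxia and 8.16% in normoxia. In hypoxic double knockout cells, members were higher and lower in numbers of 8 and 2 of 17 pan-endothelial genes, 3 and 0 of 9 lymphatic, 2 and 1 of 10 artery and 2 and 2 of 8 vein genes tested. In hypoxic wild type cells these numbers were 4 and 0, 4 and 0, 4 and 0, and 1 and 0. Double knockout against wild type gave, in hypoxia, 7 and 3 pan-endothelial, 0 and 3 lymphatic, 1 and 4 artery and 5 and 2 vein genes higher and lower, and in normoxia 3 and 0, 1 and 2, 0 and 2, and 2 and 0. Lymphatic Nts, which encodes neurotensin, was lower in double knockout cells in hypoxia (-1.29) and normoxia (-0.93), Lyve1 likewise (-0.56 and -0.40), and vein Tmem252 was higher (0.96 at each oxygen level). The artery gene Dkk2, an inhibitor of WNT signals, was lower in double knockout cells (-0.61 and -0.45), and the pan-endothelial gene Esam, a junction protein, was higher (0.36 and 0.31).

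Kit fell in hypoxia in both genotypes. Its level was 3.83, 3.88 and 3.90 FPKM in hypoxic double knockout cells, against 10.3, 10.4 and 9.22 FPKM in normoxic double knockout cells. Wild type cells had it at 2.77, 3.37 and 3.64 FPKM in hypoxia, against 7.14, 8.22 and 7.32 FPKM in normoxia. Every hypoxic library was below every normoxic one, and the hypoxic mean was 38.8% of the normoxic mean in double knockout cells and 43.1% in wild type cells.

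On the log2(FPKM + 1) scale, which understates the change of a gene at these levels, Kit fell by 1.17 in double knockout cells (standard error 0.0813, 95% interval -1.35 to -0.99, limma adjusted p = 1.38e-06). It fell by 1.01 in wild type cells (standard error 0.0813, interval -1.19 to -0.83, limma adjusted p = 8.93e-06). Of the 2 capillary genes tested, Kit alone changed in hypoxia, in each genotype. Among all 11378 genes tested limma called 39.3% in double knockout cells, 19.6% higher and 19.6% lower, and 20.8% in wild type cells, 10.5% higher and 10.4% lower. The libraries lay wholly below normoxia for 24.6% of genes in double knockout cells and for 19.4% in wild type cells. The median change of all genes was 0.01 in double knockout cells and 0.00 in wild type cells.

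Between the genotypes, the Kit response to hypoxia differed by -0.16 (double knockout minus wild type, interval -0.41 to 0.09, limma adjusted p = 0.532). For this difference limma called 0.193% of all genes. It called 0 of the 2 capillary genes, and 0 of them at an unadjusted p under 0.05.

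Kit was also higher in double knockout than in wild type cells in normoxia, at 9.97 ± 0.66 FPKM against 7.56 ± 0.58 FPKM (SD, n = 3 each). The log2 difference was 0.36 (interval 0.18 to 0.54, limma adjusted p = 0.0179), and the 3 double knockout libraries lay above the 3 wild type ones. In hypoxia it averaged 3.87 ± 0.0385 FPKM in double knockout cells and 3.26 ± 0.448 FPKM in wild type cells (SD, n = 3 each). There the log2 difference was 0.20 (interval 0.02 to 0.38, limma adjusted p = 0.126), which did not pass. The libraries again did not overlap. Of all genes, 17.4% in hypoxia and 11.6% in normoxia likewise had every double knockout library above every wild type one. From high to low, the groups thus ran double knockout normoxia, wild type normoxia, double knockout hypoxia and wild type hypoxia, of which the last pair did not differ past the threshold. The normoxic call was lost without double knockout normoxia library 1 (limma adjusted p = 0.0564) or 2 (0.0709), and without wild type normoxia library 1 (0.0657) or 3 (0.0635). Those omissions and the fits of the 2 transcripts on their own made up the 6 of 24 alternatives in which it did not pass. Limma called 8.16% of all genes between genotypes in normoxia and 16.1% in hypoxia, made up of 3.84% higher and 4.32% lower in normoxia and 7.68% higher and 8.42% lower in hypoxia.

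**Figure D3:**
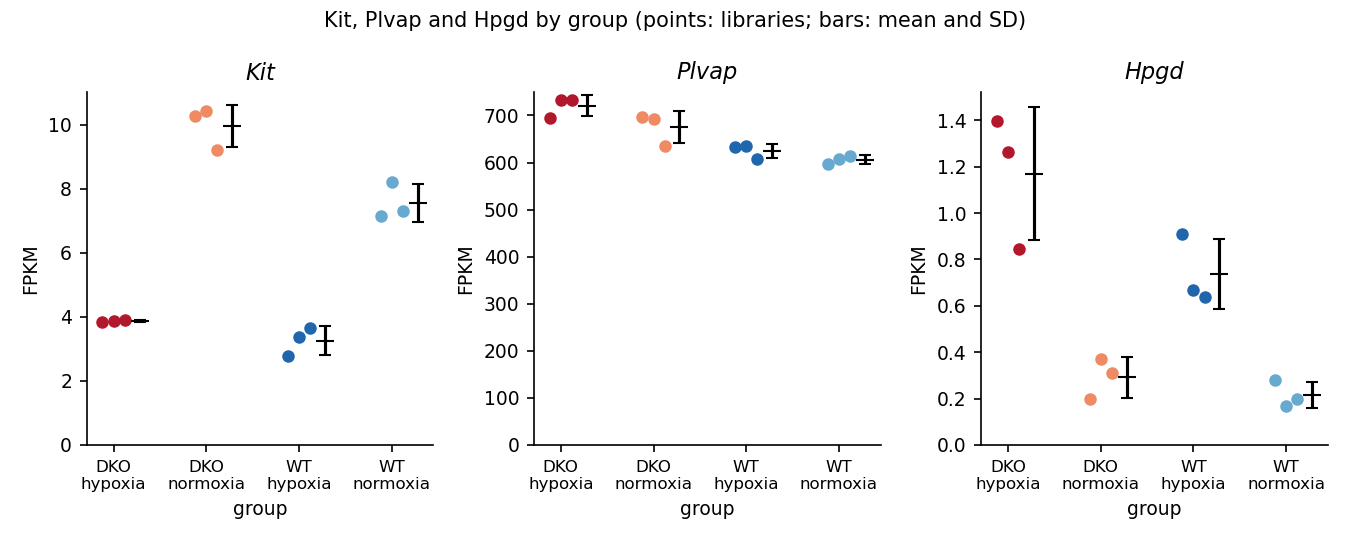
FPKM of Kit, Plvap and Hpgd in each library by group (points) with the group mean and SD (black bars, n = 3), each panel starting at 0. Kit is lower and Hpgd higher in the hypoxic than in the normoxic groups, and Plvap lies within 597 to 733 FPKM in all 12 libraries.

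Some markers of other cells moved with genotype and some with oxygen. The summed level of the 11 macrophage and leukocyte genes was 87.6 to 96.7 FPKM in hypoxic double knockout cells and 91.6 to 103 FPKM in normoxic double knockout cells. It was 53.2 to 53.6 FPKM in hypoxic wild type cells and 41.0 to 51.3 FPKM in normoxic wild type cells. Lyz2, which encodes lysozyme, led the difference, at 62.1 ± 5.97 FPKM in double knockout and 21.4 ± 4.22 FPKM in wild type normoxia (SD, n = 3 each). Of the 5 tested members 2 were higher in double knockout than in wild type cells in hypoxia, Lyz2 (1.25) and Marco (1.14), and 3 in normoxia, Lyz2 (1.51), Marco (1.06) and Cd14 (0.36). Among all genes 7.68% were called higher in double knockout cells in hypoxia and 3.84% in normoxia. Adgre1, a defining macrophage gene, did not pass 0.290 FPKM and Cd3e, a T cell gene, did not pass 0.0732 FPKM. The summed mast cell list was 0.639 to 0.945 FPKM in hypoxic and 0.268 to 0.709 FPKM in normoxic double knockout cells. For wild type cells the levels were 0.704 to 0.965 FPKM in hypoxia and 0.458 to 0.965 FPKM in normoxia, below Kit in every library. The summed fibroblast and mural list was 31.2 to 37.2 FPKM in hypoxic and 29.7 to 31.0 FPKM in normoxic double knockout cells, and 36.7 to 47.7 FPKM in hypoxic and 29.5 to 38.7 FPKM in normoxic wild type cells.

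The fibroblast and mural sum was mostly Tagln, an actin-binding protein of smooth muscle, and the 3 tested members differed in direction between genotypes. Double knockout against wild type gave -0.56 for Tagln in hypoxia (limma adjusted p = 0.00529) and -0.36 in normoxia, which did not pass (limma adjusted p = 0.0682). Dcn, which encodes the matrix proteoglycan decorin, was higher in double knockout cells in hypoxia (0.77, limma adjusted p = 0.000154) and normoxia (0.68, limma adjusted p = 0.000511). Acta2, smooth muscle actin, was likewise higher in hypoxia (0.63, limma adjusted p = 0.00614) and normoxia (0.73, limma adjusted p = 0.00388).

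With oxygen, Ager, a marker of alveolar type I cells, rose in hypoxia by 0.80 in double knockout cells (limma adjusted p = 1.02e-05) and by 0.77 in wild type cells (limma adjusted p = 3.53e-05). It averaged 2.74 FPKM in hypoxic and 1.15 FPKM in normoxic double knockout cells, and 2.44 FPKM in hypoxic and 1.01 FPKM in normoxic wild type cells. Tagln (0.40) and Cd14 (0.17) rose in hypoxic wild type cells. The difference between the hypoxia responses passed for 0 of the 3 tested fibroblast and mural genes. It passed for 0 of the 5 tested macrophage and leukocyte genes, against 0.193% of all genes. The summed epithelial list was mostly Krt18. This sum was 31.4 to 33.5 FPKM in hypoxic and 27.4 to 31.8 FPKM in normoxic double knockout cells. For wild type cells it was 27.9 to 31.3 FPKM in hypoxia and 28.2 to 32.8 FPKM in normoxia. The part of cells outside the endothelium in the Kit, Plvap and Hpgd differences was not tested.

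The 2 Kit transcripts were taken apart after their values had been seen. How the deposited FPKM were split between them is not given in the sources used here. The transcripts also differ by 39 bases at their start, so GNNK- and GNNK+ name whole transcripts here. Whether reads over the 12 bases or reads at the start set the split was not tested. The GNNK- form, without the 12 bases, was at 2.61, 1.81 and 2.34 FPKM in hypoxic double knockout cells, against 5.89, 5.82 and 5.72 FPKM in normoxic double knockout cells. In wild type cells it was at 1.92, 1.49 and 1.53 FPKM in hypoxia, against 5.22, 5.93 and 4.18 FPKM in normoxia. All 6 hypoxic libraries lay below all 6 normoxic ones. The share of all transcripts that did so was not counted.

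The GNNK+ form was at 1.22, 2.06 and 1.56 FPKM in hypoxic double knockout cells, against 4.39, 4.60 and 3.49 FPKM in normoxic ones. Wild type cells had it at 0.843, 1.87 and 2.12 FPKM in hypoxia, against 1.92, 2.29 and 3.13 FPKM in normoxia, and these libraries overlapped. Fitted as transcripts, the GNNK- form fell by 1.07 in double knockout cells (limma adjusted p = 0.000223) and by 1.20 in wild type cells (limma adjusted p = 0.000326). The GNNK+ form fell by 0.99 in double knockout cells (limma adjusted p = 0.00714), and its wild type value of -0.42 (interval -0.89 to 0.05) did not pass (limma adjusted p = 0.257). The difference between these responses was -0.57 (interval -1.24 to 0.10, limma adjusted p = 0.498), which did not pass. For the GNNK- form it was 0.13 (limma adjusted p = 0.837). Of 18090 transcripts, limma called 24.6% in double knockout cells and 9.61% in wild type cells. Between genotypes neither form passed. In hypoxia the double knockout minus wild type value was 0.29 for the GNNK- form (limma adjusted p = 0.205) and 0.02 for the GNNK+ form (limma adjusted p = 0.969), and in normoxia it was 0.17 for the GNNK- form (limma adjusted p = 0.588) and 0.59 for the GNNK+ form (limma adjusted p = 0.198).

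The GNNK- transcript made up 58.3% ± 10.8 of Kit FPKM in hypoxic and 58.4% ± 3.26 in normoxic double knockout cells. In wild type cells it made up 51.9% ± 15.3 in hypoxia and 67.5% ± 8.92 in normoxia (SD, n = 3 each throughout). These shares are of deposited transcript values, and reads over the extra bases were not counted. Hypoxia against normoxia, within genotype, gave a difference of -7.81 percentage points (two-sided exact permutation p = 0.22, n = 6 each). Double knockout against wild type, within oxygen level, gave -1.33 points (two-sided exact permutation p = 0.875, n = 6 each). The share varied by more between libraries of hypoxic wild type cells (41.9 to 69.5%) than these differences.

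**Figure D4:**
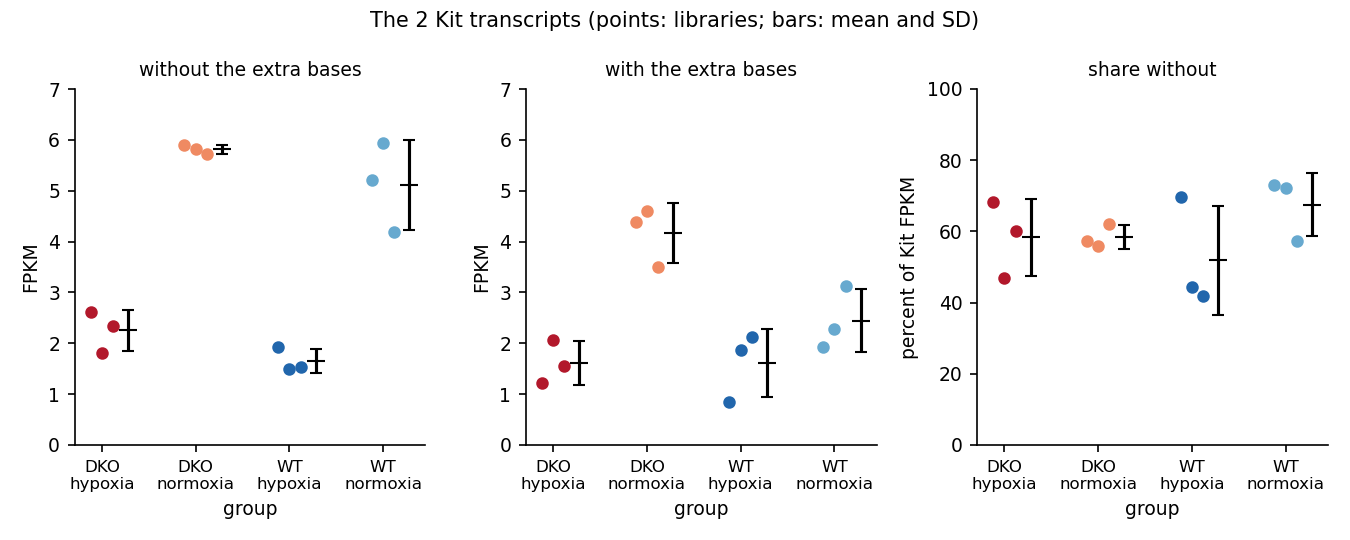
FPKM of the Kit transcript without the extra exon 9 bases (GNNK-, left) and with them (GNNK+, middle), and the percent of Kit FPKM in the transcript without them (right), for each library by group, with the group mean and SD (n = 3). The GNNK- transcript is lower in all 6 hypoxic libraries, and its share spreads from 41.9 to 69.5% in hypoxic wild type cells.

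Of 25 KIT signalling genes 23 were tested. In double knockout cells 6 were higher and 4 lower in hypoxia (list median 0.07, against 0.01 for all genes), and in wild type cells 3 were higher and 1 lower (0.05, against 0.00). These counts, 10 and 4 of 23, are near the shares called among all genes (39.3% in double knockout and 20.8% in wild type cells). Kitl, the ligand gene, moved opposite to its receptor: it averaged 5.04 ± 0.653 FPKM in hypoxic and 3.69 ± 0.364 FPKM in normoxic double knockout cells, and 5.95 ± 0.341 FPKM in hypoxic and 4.30 ± 0.387 FPKM in normoxic wild type cells (SD, n = 3 each). Its log2 change was 0.36 in double knockout (limma adjusted p = 0.00719) and 0.39 in wild type cells (limma adjusted p = 0.0100). Dok1, an adaptor that restrains receptor tyrosine kinases, fell with Kit, to 11.1 ± 0.202 FPKM in hypoxic double knockout cells against 18.5 ± 0.649 FPKM in normoxic ones (log2 change -0.69, limma adjusted p = 4.42e-06). It fell to 12.8 ± 1.07 FPKM in hypoxic wild type cells against 18.1 ± 0.445 FPKM in normoxic ones (log2 change -0.48, limma adjusted p = 0.000169).

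Further members rose by less. Fyn, a kinase of the SRC family, rose by 0.26 in double knockout and 0.18 in wild type cells. Ptpn11, which encodes the phosphatase SHP2, rose by 0.25 in double knockout cells, and Gab2, a docking protein, by 0.24 in double knockout and 0.23 in wild type cells. Socs6, which encodes a suppressor of cytokine signalling known to bind KIT, fell by 0.33 in double knockout cells. In wild type cells Ptpn11 averaged 36.9 FPKM in hypoxia and 34.3 FPKM in normoxia, and Socs6 19.1 and 21.4 FPKM. Neither passed there. Limma called 0 of the 23 tested members for the difference between the hypoxia responses, against 0.193% of all genes. Between genotypes 1 of the 23 tested members, Plcg1, was higher in double knockout cells in normoxia (0.28), against 8.16% of all genes called. In hypoxia Ptpn11 was higher (0.14) and Dok1 lower (-0.18) in double knockout cells, against 16.1% of all genes called. Both shares called in the list were below those of all genes.

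Of 12 transcription regulators linked to Kit 9 were tested, of which 3 were called in hypoxic double knockout cells and 1 in hypoxic wild type cells, against 39.3% and 20.8% of all genes. Tal1, the partner of a complex that binds the Kit gene in blood cells, fell by 0.48 in hypoxic double knockout cells (limma adjusted p = 1.72e-05) and by 0.21 in hypoxic wild type cells (limma adjusted p = 0.00927). Its level was 9.84, 10.6 and 10.7 FPKM in hypoxic double knockout libraries, against 14.2, 15.3 and 15.2 FPKM in normoxic ones. In wild type libraries it was 12.3, 12.4 and 12.7 FPKM in hypoxia, against 15.1, 14.6 and 14.1 FPKM in normoxia. Lyl1, a relative of Tal1, fell by 0.47 and Lmo2, a bridging protein of the same complex, by 0.15 in hypoxic double knockout cells. In hypoxia Lyl1 (-0.56) and Tal1 (-0.24) were lower in double knockout than in wild type cells, and in normoxia Lmo2 was higher (0.17). These were 2 of the 9 tested regulators in hypoxia and 1 of 9 in normoxia, near the 16.1% and 8.16% of all genes called. The difference between the hypoxia responses passed for 0 of the 9, against 0.193% of all genes. The other class III receptor tyrosine kinases did not reach 1 FPKM in any library, with Pdgfra, Pdgfrb and Csf1r at 0.102 to 0.418 FPKM and Flt3 at or under 0.0268 FPKM.

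Plvap was higher in double knockout than in wild type cells at both oxygen levels. Its level was 694, 733 and 733 FPKM in hypoxic double knockout cells and 697, 693 and 636 FPKM in normoxic ones. For wild type cells the levels were 633, 634 and 607 FPKM in hypoxia and 597, 608 and 615 FPKM in normoxia. The libraries of the genotypes did not overlap at either oxygen level, while within each genotype the hypoxic and normoxic libraries overlapped.

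The log2 difference of Plvap between genotypes was 0.20 in hypoxia (interval 0.12 to 0.29, limma adjusted p = 0.00574) and 0.15 in normoxia (interval 0.07 to 0.24, limma adjusted p = 0.0383), with the double knockout at 115% and 111% of the wild type mean. Of all genes 17.4% in hypoxia and 11.6% in normoxia had every double knockout library above every wild type one. The normoxic call was lost in 15 of 23 alternatives, among them 9 of the 12 that left out a library (limma adjusted p up to 0.135), and the hypoxic call in 1 of 23, quantile normalization. Hypoxia against normoxia gave 0.09 in double knockout cells (limma adjusted p = 0.0903) and 0.04 in wild type cells (limma adjusted p = 0.496), and neither passed. The gene lies at GRCm38 chr8:71497765-71511752 on the minus strand and overlaps Gtpbp3 on the other strand without shared exon bases, and Gtpbp3 was at 6.26 to 14.1 FPKM.

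Of the 9 genes of caveolae and diaphragms, Plvap included, 3 were higher and 1 lower in double knockout cells in hypoxia, and likewise in normoxia, against 16.1% and 8.16% of all genes called. Cav1, the coat protein of caveolae, averaged 740 ± 6.78 FPKM in double knockout and 635 ± 24.7 FPKM in wild type hypoxia (SD, n = 3 each), a log2 difference of 0.22 (limma adjusted p = 0.00114). In normoxia its difference was 0.15. Sdpr (cavin 2) went the other way, with -0.34 in hypoxia and -0.29 in normoxia, and it also fell by 0.29 in hypoxic double knockout and 0.24 in hypoxic wild type cells. Ehd4, a membrane-shaping ATPase, was higher in hypoxic double knockout cells, both against hypoxic wild type cells (0.30) and against normoxic double knockout cells (0.33). Prkcdbp (cavin 3) rose in hypoxia by 0.29 in double knockout and 0.31 in wild type cells. The difference between the hypoxia responses passed for 0 of the 9, against 0.193% of all genes.

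Hpgd (chr8:56294585-56321043, plus strand) was higher in hypoxia in both genotypes, at a low level. It was at 1.40, 1.26 and 0.847 FPKM in hypoxic double knockout cells, against 0.197, 0.371 and 0.310 FPKM in normoxic double knockout cells. In wild type cells it was at 0.912, 0.666 and 0.637 FPKM in hypoxia, against 0.278, 0.169 and 0.196 FPKM in normoxia. Every hypoxic library lay above every normoxic one, on an estimated 5.85 to 45.7 fragments a library. Of the genes above the filter, 25.6% in double knockout and 18.8% in wild type cells had every hypoxic library above every normoxic one. The hypoxic mean was 4.00 times the normoxic mean in double knockout cells and 3.44 times in wild type cells.

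Within genotype, the mean log2(FPKM + 1) difference of Hpgd was 0.63 (two-sided exact permutation p = 0.005, n = 6 each), the smallest p that the 400 regroupings can give. With no filter on low values, limma over 21558 genes gave 0.74 in double knockout cells (interval 0.52 to 0.96, adjusted p = 0.000507) and 0.51 in wild type cells (interval 0.29 to 0.74, adjusted p = 0.0111). In that fit 10.2% of genes were called higher in hypoxic double knockout cells and 4.75% in hypoxic wild type cells. The difference between the responses was 0.23 (interval -0.09 to 0.54, limma adjusted p = 0.623).

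Between genotypes, within oxygen level, the mean Hpgd difference was 0.20 (two-sided exact permutation p = 0.04, n = 6 each). The genotypes overlapped at both oxygen levels. This p passed 0.05 with all 12 libraries and did not in 8 of the 12 cases in which a library was left out (0.055 to 0.095). In limma with no filter the genotype difference was 0.31 in hypoxia (adjusted p = 0.0933) and 0.09 in normoxia (adjusted p = 0.757).

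**Figure D5:**
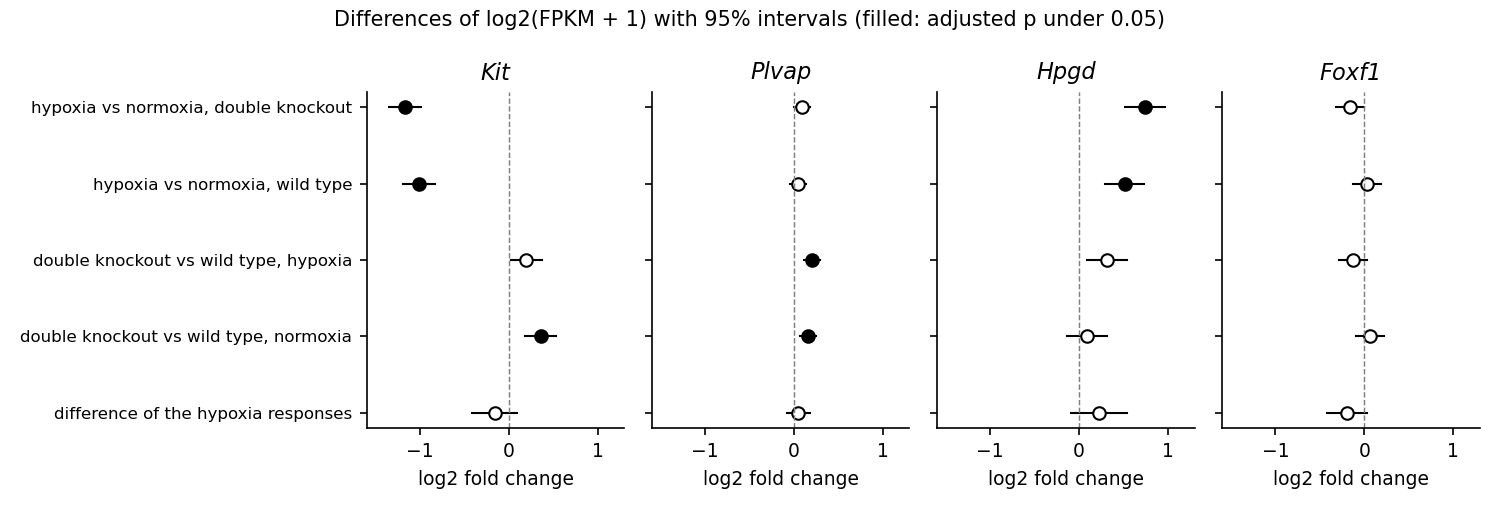
Differences of log2(FPKM + 1) for Kit and Plvap (11378 genes tested) and for Hpgd and Foxf1 (no filter, 21558 genes tested) in 5 comparisons, as points with 95% intervals, filled where the limma adjusted p was under 0.05. Kit lies left of 0 and Hpgd right of 0 for hypoxia in both genotypes, and the intervals of the difference of the hypoxia responses include 0 for all 4 genes.

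Genes around HPGD in prostaglandin handling gave 9 tested members of 19. In hypoxia 5 were higher and 2 lower in double knockout cells (list median 0.20, against 0.01 for all genes), and 2 were higher and 0 lower in wild type cells (0.03, against 0.00). Among all genes 39.3% were called in double knockout and 20.8% in wild type cells. Ptgs2, the inducible cyclooxygenase that makes the precursor of prostaglandins, was at 20.5, 17.0 and 16.9 FPKM in hypoxic double knockout cells, against 6.17, 6.15 and 6.56 FPKM in normoxic ones. Wild type cells had it at 15.6, 11.8 and 9.90 FPKM in hypoxia, against 6.04, 6.90 and 5.59 FPKM in normoxia. It rose by 1.39 in double knockout (limma adjusted p = 1.22e-05) and 0.89 in wild type cells (limma adjusted p = 0.000839), so the gene for synthesis and the gene for breakdown were both higher in hypoxia.

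Pla2g4a, the phospholipase that frees arachidonic acid, rose by 0.56 in double knockout and 0.32 in wild type cells. Abcc4, a prostaglandin exporter, rose by 0.35 in double knockout cells. Ptges3, a prostaglandin E synthase and HSP90 co-chaperone, rose by 0.26 in double knockout cells. It was the 1 of 9 tested members whose responses differed between genotypes (0.23, limma adjusted p = 0.0347). For this difference limma called 22 of 11378 genes (0.193%), a number that ranged from 1 to 153 over the alternative settings. The call of Ptges3 was not followed in those settings. In hypoxia Ptgs2 (0.53), Pla2g4a (0.27), Ptges3 (0.14) and Ptgr2 (0.19), a prostaglandin reductase, were higher in double knockout than in wild type cells. These 4 were all of the 9 tested members called there, against 7.68% of all genes called higher and 8.42% lower. In normoxia 1 of the 9 was higher and 0 lower, against 3.84% and 4.32% of all genes.

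The promoters of the pair of genes that moved with oxygen in opposite directions, Kit and Hpgd, are shown from RefSeq (GRCm38.p6), as 250 bases before and 50 after the start. RefSeq promoters matched 4 of the 8 genes. The core of the hypoxia response element was searched as ACGTG or GCGTG on both strands, and matches are in capitals.
Kit, chr5:75574737-75575036, plus strand: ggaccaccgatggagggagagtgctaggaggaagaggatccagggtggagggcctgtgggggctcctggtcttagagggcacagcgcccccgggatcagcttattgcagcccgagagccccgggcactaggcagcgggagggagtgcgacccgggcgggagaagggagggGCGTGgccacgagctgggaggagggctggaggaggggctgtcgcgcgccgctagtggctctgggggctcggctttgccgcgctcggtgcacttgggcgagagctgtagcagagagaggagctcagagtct
Hpgd, chr8:56294302-56294601, plus strand: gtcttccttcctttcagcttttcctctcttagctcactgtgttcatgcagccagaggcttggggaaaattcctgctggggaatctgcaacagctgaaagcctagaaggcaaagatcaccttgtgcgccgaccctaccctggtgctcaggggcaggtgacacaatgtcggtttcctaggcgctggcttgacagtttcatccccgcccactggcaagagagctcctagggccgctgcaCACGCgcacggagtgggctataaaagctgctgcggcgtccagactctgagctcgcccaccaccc
Each held 1 match, at -80 from the start in Kit and at -14, on the minus strand, in Hpgd. Car4 held 1 and Emp2 0, and 43.8% of 27025 promoters of this length held at least 1, so that a match does not set these genes apart.

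The transcription factors of the set were low. Foxf1, a forkhead factor that lung capillaries need for their development, was at 0.361, 0.459 and 0.317 FPKM in hypoxic double knockout cells and at 0.458, 0.520 and 0.645 FPKM in normoxic ones. For wild type cells the levels were 0.377, 0.633 and 0.519 FPKM in hypoxia and 0.527, 0.400 and 0.491 FPKM in normoxia. The groups overlapped, on an estimated 15.0 to 33.8 fragments a library. Hypoxia against normoxia gave -0.06 (two-sided exact permutation p = 0.31, n = 6 each) and double knockout against wild type -0.03 (two-sided exact permutation p = 0.6, n = 6 each). The first value averages both genotypes. In limma with no filter the hypoxia value of Foxf1 was -0.16 in double knockout cells (interval -0.32 to -0.0016, adjusted p = 0.161). In wild type cells it was 0.03 (adjusted p = 0.868), and the difference between the responses was -0.19 (adjusted p = 0.525). Gm20388, a gene model on the same strand, spans Foxf1 without shared exon bases and reached 0.756 FPKM. Fendrr, which lies beside Foxf1 on the other strand, was not analysed here.

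Of 15 endothelial genes linked to FOXF1 12 were tested, and 4 were higher and 2 lower in hypoxic double knockout cells, and 2 higher and 2 lower in hypoxic wild type cells, against 39.3% and 20.8% of all genes called. Flt1, a VEGF receptor, rose by 0.46 in double knockout and 0.25 in wild type cells. Acvrl1, which encodes the BMP9 receptor ALK1, rose by 0.18 in double knockout and 0.22 in wild type cells, and Itgb3, an integrin subunit, by 0.18 in double knockout cells. Bmp4 fell by 0.37 in double knockout and 0.23 in wild type cells, and Kdr fell by 0.24 and 0.21. Cd34 was higher in double knockout than in wild type cells in hypoxia (0.31) and normoxia (0.25), and so was Smad1 (0.17 and 0.13), a mediator of BMP signals. S1pr1, the sphingosine 1-phosphate receptor, was lower in hypoxic double knockout than in hypoxic wild type cells (-0.26). Between genotypes 3 of the 12 were higher and 1 lower in double knockout cells in hypoxia, and 3 and 0 in normoxia. Of all genes 16.1% and 8.16% were called. None of the hypoxia responses differed between genotypes past the threshold (0 of 12, against 0.193% of all genes).

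Tbx2 and Tbx3 encode T-box repressors. Tbx2 was at 0.0811 to 0.111 FPKM in hypoxic and 0.0245 to 0.133 FPKM in normoxic double knockout cells, and at 0.0572 to 0.130 FPKM in hypoxic and 0.0486 to 0.133 FPKM in normoxic wild type cells, which is an estimated 2.01 to 11.0 fragments a library. No difference was detectable at this depth, for hypoxia (0.01, two-sided exact permutation p = 0.83, n = 6 each) or genotype (-0.01, two-sided exact permutation p = 0.66, n = 6 each). Tbx3 was at 0.0302 to 0.0415 FPKM in hypoxic and 0 to 0.0183 FPKM in normoxic double knockout cells, which did not overlap. In wild type cells it was at 0.0170 to 0.0451 FPKM in hypoxia and 0.00895 to 0.0343 FPKM in normoxia, which did. Of the genes above the filter, 25.6% in double knockout cells had every hypoxic library above every normoxic one. For hypoxia Tbx3 gave 0.03 (two-sided exact permutation p = 0.025, n = 6 each), on 0 to 4.99 estimated fragments a library, at or close to the FPKM of 3 fragments (0.0245 to 0.0313). This p did not pass 0.05 without wild type hypoxia library 1 (0.07) or 2 (0.065) or without wild type normoxia library 1 (0.06) or 2 (0.055). In limma with no filter Tbx3 did not pass for hypoxia. That fit gave 0.03 in double knockout cells (adjusted p = 0.194) and 0.02 in wild type cells (adjusted p = 0.600). The genotype difference of Tbx3 was -0.00 (two-sided exact permutation p = 0.67, n = 6 each). The antisense gene Tbx3os1 shares 115 exon bases with Tbx3, and whether the reads kept strand is not given in the sources used here.

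Of 11 T-box genes, Tbx1 alone reached a mean of 1 FPKM. Tbx1, a factor of the pharyngeal arches and of lymphatic vessels, averaged 14.3 ± 2.19 FPKM in hypoxic and 21.6 ± 1.44 FPKM in normoxic double knockout cells (SD, n = 3 each), a fall of 0.57 (limma adjusted p = 0.000362). In wild type cells it averaged 18.4 ± 0.783 FPKM in hypoxia and 21.7 ± 1.36 FPKM in normoxia, a difference of -0.22 that did not pass (limma adjusted p = 0.0936). The difference between these responses was -0.35 (limma adjusted p = 0.203). In hypoxia it was lower in double knockout than in wild type cells (-0.36, limma adjusted p = 0.0174).

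Car4 encodes a carbonic anhydrase anchored to the cell surface. Its exception to 0 was 0.0859 FPKM in double knockout normoxia library 1, which is an estimated 0.962 of a fragment. In a library of this depth 3 fragments, the limit that a count of 0 allows, are 0.118 to 0.144 FPKM for the longer Car4 transcript and 0.252 to 0.308 FPKM for the shorter, for counting error only. No comparison was made. Of 16 carbonic anhydrase genes 6 were tested, led by the cytosolic form Car2. Car2 was at 73.1, 73.3 and 71.2 FPKM in hypoxic double knockout cells, against 133, 151 and 140 FPKM in normoxic ones. Wild type cells had it at 66.0, 61.8 and 59.7 FPKM in hypoxia, against 86.1, 81.3 and 95.6 FPKM in normoxia.

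Car2, like Kit, was lower in all 6 hypoxic than in all 6 normoxic libraries. Within genotype, the libraries lay wholly below normoxia for 24.6% of genes in double knockout cells and for 19.4% in wild type cells. Car2 fell in hypoxia by 0.95 in double knockout (limma adjusted p = 7.32e-07) and by 0.48 in wild type cells (limma adjusted p = 0.000337). Double knockout against wild type gave 0.21 in hypoxia (limma adjusted p = 0.0343) and 0.69 in normoxia (limma adjusted p = 3.32e-05). The difference between its responses was -0.47 (limma adjusted p = 0.0610). Car8 rose in hypoxia by 0.22 in double knockout and 0.16 in wild type cells, and Car13 by 0.36 in double knockout cells. In hypoxia 2 of the 6 tested genes were higher and 1 lower in double knockout cells, and 1 and 1 in wild type cells. Of all genes 39.3% and 20.8% were called. The difference between the hypoxia responses passed for 0 of the 6, against 0.193% of all genes.

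Emp2 encodes a membrane protein with 4 transmembrane spans. It was at 0.0543 to 0.157 FPKM in hypoxic and 0.0648 to 0.141 FPKM in normoxic double knockout cells, and at 0.0414 to 0.121 FPKM in hypoxic and 0.0764 to 0.102 FPKM in normoxic wild type cells, an estimated 2.99 to 11.0 fragments a library. No difference was detectable at this depth, for hypoxia (0.00, two-sided exact permutation p = 0.935, n = 6 each) or genotype (0.02, two-sided exact permutation p = 0.445, n = 6 each). Of its family of 7 genes 5 were tested. Emp1, the most abundant, averaged 354 ± 4.95 FPKM in hypoxic and 313 ± 6.07 FPKM in normoxic double knockout cells, and rose by 0.18 there and by 0.20 in wild type cells. Pmp22, a myelin protein also made outside nerve, rose by 0.51 in double knockout and 0.34 in wild type cells, and it was lower in double knockout than in wild type cells in hypoxia (-0.45) and normoxia (-0.61). Tmem47 rose by 0.32 in hypoxic double knockout cells. In hypoxia 3 of the 5 tested genes were higher and 0 lower in double knockout cells, and 2 and 0 in wild type cells. Of all genes 39.3% and 20.8% were called. The difference between the hypoxia responses passed for 0 of the 5, against 0.193% of all genes.

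Of 7 aerocyte genes tested, 3 were higher and 1 lower in hypoxic double knockout cells, and 2 higher and 1 lower in hypoxic wild type cells, against 39.3% and 20.8% of all genes called. Between genotypes 0 were higher and 2 lower in double knockout cells at each oxygen level (list medians -0.14 in hypoxia and -0.18 in normoxia, against -0.00 and -0.01 for all genes, of which 16.1% and 8.16% were called). Ednrb was at 14.1, 13.7 and 10.4 FPKM in hypoxic double knockout cells and at 8.69, 9.74 and 8.51 FPKM in normoxic ones. For wild type cells the levels were 32.1, 31.5 and 23.9 FPKM in hypoxia and 15.2, 15.2 and 14.6 FPKM in normoxia. It was lower in double knockout than in wild type cells in hypoxia (-1.13, limma adjusted p = 8.09e-05) and normoxia (-0.69, limma adjusted p = 0.00363), and rose in hypoxia by 0.45 in double knockout and 0.90 in wild type cells. Cyp4b1, a cytochrome P450, was lower in double knockout cells too, with -0.44 in hypoxia and -0.46 in normoxia. Sirpa, the receptor for CD47, rose by 0.34 in hypoxic double knockout cells. In wild type cells it averaged 33.5 FPKM in hypoxia and 29.3 FPKM in normoxia, which did not pass. For the difference between the hypoxia responses limma called 0 of the 7 aerocyte genes, against 0.193% of all genes.

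Of 10 general capillary genes tested, Kit and Plvap included, 3 were higher and 1 lower in double knockout than in wild type cells in hypoxia, and 5 higher and 1 lower in normoxia (list medians 0.17 and 0.15), against 16.1% and 8.16% of all genes called. Gpihbp1 was at 17.7, 14.8 and 18.5 FPKM in hypoxic and 12.9, 13.9 and 19.6 FPKM in normoxic double knockout cells. In wild type cells it was at 7.87, 9.82 and 9.19 FPKM in hypoxia and 6.16, 5.66 and 5.64 FPKM in normoxia. All 6 double knockout libraries lay above all 6 wild type ones, with log2 differences of 0.85 in hypoxia (limma adjusted p = 0.00114) and 1.25 in normoxia (limma adjusted p = 0.000126). Of all genes 17.4% in hypoxia and 11.6% in normoxia had every double knockout library above every wild type one. The share over both oxygen levels together was not counted. Cd93 was higher in double knockout cells by 0.40 in hypoxia and 0.29 in normoxia.

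Cxcl12, a chemokine, was lower in double knockout than in wild type cells, with -0.31 in hypoxia and -0.43 in normoxia. In hypoxia 3 of the 10 were higher and 1 lower in double knockout cells, and 3 higher and 2 lower in wild type cells, against 39.3% and 20.8% of all genes called. Cxcl12 rose by 0.55 in double knockout and 0.44 in wild type cells, and Ptprb, which encodes the phosphatase VE-PTP, rose by 0.54 and 0.37.

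Over the 12 libraries, the tested genes most like Kit by Pearson's r of log2(FPKM + 1) were Ano3 (r = 0.988), Gdpd5 (r = 0.979) and Msh6 (r = 0.976). Ano3, for example, averaged 12.7 FPKM in hypoxic and 16.7 FPKM in normoxic double knockout cells, and 12.5 FPKM in hypoxic and 15.5 FPKM in normoxic wild type cells. The genes most like Plvap were Senp2 (r = 0.953), Nox4 (r = 0.944) and Ly6e (r = 0.937), of which Ly6e averaged 75.2 FPKM in hypoxic and 59.7 FPKM in normoxic double knockout cells, and 44.2 FPKM in hypoxic and 41.6 FPKM in normoxic wild type cells. These values describe the libraries, which share the 4 groups.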

How the data were processed

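RNA of 12 libraries of cultured lung endothelial cells was purified (RNeasy Plus) and prepared for sequencing (NEBNext Ultra), per the labels' protocols. The submitters' processing notes name TopHat2 as aligner. The authors deposited FPKM per transcript, and neither the FPKM tool nor the version, build or annotation is given in the sources used here. FPKM were summed per gene. A mean of 1 FPKM or more over all libraries admitted 11378 genes to limma 3.58.1 (R 4.3.3) on log2(FPKM + 1), with 1 coefficient per group, a variance trend and Benjamini-Hochberg adjustment over all tested genes at 0.05. Genes below that mean had two-sided exact permutation tests, with labels permuted within the other factor (10 tests of 5 genes, unadjusted; Car4 was not compared).

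Depth came from steps in the low FPKM of 9789 single-transcript genes, with 275 bases off each length; 87.9 to 91.7% of these values lay within 0.1 of a whole fragment. GENCODE M21 (GRCm38) gave positions and held 95.2% of transcript identifiers. Genes named are the 8, their neighbours, the 3 most like Kit and Plvap, and list members with the smallest p past the threshold, at most 4 a list and comparison. Markers given for their levels were chosen after these were seen, as were some of the endothelial list examples. The limma fit was tried on simulated data, with genes changed in hypoxic wild type cells only. The depth estimate and the permutation tests were not tried in this way. The 8 genes, lists and tests were chosen with earlier results of these data known.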

Additional observations from a re-analysis of the deposited data

How the results depend on the processing

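Settings tried were another pseudocount (0.1), no filter, filters at 5 and at 0.1 FPKM (the last chosen after seeing the data), quantile normalization, equal medians, fits of a comparison's own libraries, a replicate block, a fit without variance trend, array weights, single transcripts, and omission of each library. The fall of Kit in hypoxia passed in all 24 settings in double knockout cells and in 23 of 24 in wild type cells, the exception being the GNNK+ transcript. Capillary genes past the threshold numbered 2 in place of 1 for hypoxia in double knockout and in wild type cells, with no filter and with the filter at 0.1 FPKM, through Hpgd. Between genotypes in normoxia they numbered 1 in place of 2 with no filter, quantile normalization, the comparison's own libraries, the replicate block and no variance trend. In hypoxia they numbered 0 in place of 1 with quantile normalization. Omission of a library gave 1 to 2 for hypoxia in double knockout cells and 0 to 2 between genotypes in normoxia.

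All genes past the threshold for the difference of responses numbered 22, against 12 with quantile normalization, 6 without variance trend, 153 with array weights and 1 with the replicate block, and 1 to 39 when a library was left out. Between genotypes in normoxia they numbered 929, against 616 in the comparison's own libraries and 583 to 935 when a library was left out. That omission gave 1175 to 1873 between genotypes in hypoxia (1832 with all) and 1382 to 2393 for hypoxia in wild type cells (2370 with all).

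Signs turned for the wild type Plvap response under quantile normalization (-0.026), the difference of Kit responses in the GNNK- transcript (0.13) and the Emp2 response at a pseudocount of 0.1 (-0.0058). When a library was left out, the hypoxia value ranged from -0.011 to 0.026 for Tbx2 and from -0.015 to 0.019 for Emp2. The genotype value ranged from -0.034 to 0.0023 for Tbx2, from -0.0096 to 0.0011 for Tbx3, and from -3.90 to 3.07 points for the Kit transcript share. The cause was not tested. The replicate block ended the Plvap call in normoxia (limma adjusted p = 0.0514) and no other call of Kit or Plvap. Same-numbered libraries correlated at -0.0841 to 0.0522 in their deviations, with 0 of 12 pairs over 0.1, so no pairing by number was detected. Such correlations cannot show whether these libraries shared a culture or an animal. Depth limits Car4, Tbx2, Tbx3 and Emp2, at 11.0 estimated fragments or fewer.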
